A study of Homo sapiens with 12 samples.

Results

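The 6 libraries described here are poly(A)+ RNA-seq libraries of cells kept in normoxia: 2 of RKO, a colon carcinoma line, 2 of A549 and 2 of H460, both lung carcinoma lines. They are 6 of the 12 libraries of a study of hypoxia. The other 6 hold the same lines after 24 h at 1% O2, and were used here only to look at the same line difference in other cultures. The 6 were chosen by their labels alone, not by a measured value. The labels name no added genetic change or drug. RKO and A549 cells grew in DMEM and H460 cells in RPMI, all media holding 10% FBS and an antibiotic-antimycotic at 1%. For H460, line and medium therefore cannot be told apart. Colon tissue is represented by the RKO line alone, so tissue and line cannot be told apart either. The question was which genes already separate RKO from the lung lines before hypoxia, among them genes of cell identity, genes without reads and hypoxia genes.

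Epithelial tumor lines keep part of the transcription program of their tissue of origin. In the gut this program is set by factors such as CDX2 and HNF4A, and in the lung by NKX2-1 and the FOXA factors. Tumor lines also lose genes by deletion or by DNA methylation of the promoter, and colorectal tumors with dense promoter methylation form a known class. A549 and H460 are known to carry KEAP1 mutations and to lack CDKN2A. KEAP1 holds back NRF2, the activator of antioxidant and detoxification genes. In hypoxia, HIF1A and EPAS1 (HIF2A) escape the prolyl hydroxylases EGLN1 to EGLN3 and activate genes of glycolysis, angiogenesis and matrix remodeling. None of these genotypes was read from the present data.

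The 6 libraries held between 27350424 and 40087914 reads in genes. Levels are given as CPM, read counts scaled to library size with TMM factors, and 3 reads correspond to 0.0722 to 0.106 CPM in these libraries. RKO had reads for fewer genes than the lung lines, 15744 and 15863 against 17513 to 18031. The gap remained when all 6 libraries were thinned to the smallest total, with 15420 and 15556 genes in RKO and 17513 to 17613 in the lung lines. The design text of the series describes the 2 libraries of each line as independent biological replicates, and each such pair differed by more than counting error. The p-values measure only this spread between cultures of a line.

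RKO stood apart from both lung lines in a large share of its transcriptome. Of 15150 genes tested, 3887 (25.7%) were called higher and 5143 (33.9%) lower in RKO than in the mean of A549 and H460, at an adjusted p below 0.1 and a fold change over 1.5. As a mean of A549 and H460 can hide a gene that differs between them, genes were also counted only where neither RKO library overlapped any of the 4 lung libraries. Called genes without overlap numbered 3410 higher (22.5%) and 4252 lower (28.1%). Differences over 8-fold were more often toward low values in RKO, with 509 genes higher (3.36%) and 1975 lower (13.0%). The 509 became 316 without RKO replicate 1 and 333 without RKO replicate 2, because a gene read in RKO alone then no longer passes the filter of 2 libraries over 0.5 CPM. Against A549 alone 60.3% of genes were called in either direction, against H460 alone 62.4%, and the lung lines differed from each other in 52.4%. With the line as the unit, that is 1 colon line against 2 lung lines, no gene passed, the smallest adjusted p was 0.214 and 1742 genes had an unadjusted p below 0.05. All calls below therefore describe these 3 lines and not colon against lung tumors.

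**Figure D1:**
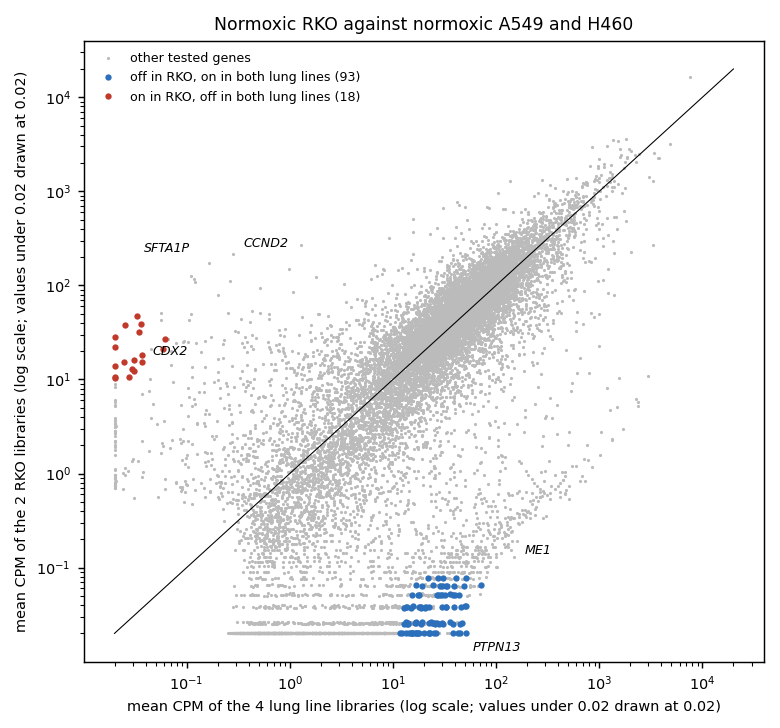
Mean CPM of the 2 normoxic RKO libraries (vertical, log scale) against the mean CPM of the 4 normoxic lung line libraries (horizontal, log scale) for each gene tested, with the line of equal levels. The 93 genes off in RKO (blue) lie at the bottom right and the 18 genes on in RKO alone (red) at the upper left, and named points mark genes given in the text.

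Markers of the labelled tissues were sparse in all lines. Of 24 intestinal identity genes, 12 had at most 3 reads in each of the 6 libraries and 8 could be tested. CDX2, the homeobox factor that sets intestinal identity, had 15.1 and 15.5 CPM in RKO, 0 and 0.0248 CPM in A549 and 0.0353 and 0.0875 CPM in H460. Both RKO libraries lay far above all lung libraries, in which no more than 3 reads of CDX2 were counted. Other genes of gut epithelium were scarce, as CDX1, VIL1, KRT20, GUCY2C, LGR5, OLFM4 and FABP1 could not be tested for want of reads. HNF4A, a nuclear regulator of gut and liver genes, was read beyond a few reads in A549 alone (0.0532 and 0.075 CPM in RKO, 26 and 31 CPM in A549 and 0.0706 and 0.0584 CPM in H460). CEACAM6, a surface glycoprotein, had 0 and 0.05 CPM in RKO, 56.5 and 23.2 CPM in A549 and 0.106 and 0.0875 CPM in H460, so that its difference rested on A549. In all, 1 intestinal gene was called higher without overlap and 2 lower (12.5% and 25% of those tested, against 22.5% and 28.1% of all genes).

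Lung markers were thin in the lung lines too. NKX2-1, the surfactant genes SFTPA1, SFTPA2, SFTPB, SFTPC and SFTPD, SCGB1A1 and CLDN18 had too few reads to be tested in any line. Of the 11 lung identity genes tested, 4 were higher in RKO without overlap (36.4%, background 22.5%) and 3 lower (27.3%, near the background of 28.1%). ABCA3, the lipid transporter of alveolar type II cells, was higher in RKO (95.4 and 141 CPM in RKO, 50.01 and 47.7 CPM in A549 and 34.1 and 29 CPM in H460, log2 fold change 1.58 ± 0.15 (SE), adjusted p = 9.33e-07). ETV5 and GATA6, transcription factors of the alveolar epithelium, were higher in RKO too, at log2 fold changes of 0.83 and 1.55. FOXA1, a pioneer factor of endodermal epithelia, was lower in RKO (6.91 and 6.33 CPM in RKO, 14.99 and 9.79 CPM in A549 and 71.1 and 59.1 CPM in H460, log2 fold change -2.11 ± 0.20 (SE), adjusted p = 8.80e-07). NAPSA, an alveolar protease, was read at 3.95 and 3.3 CPM in A549 and 0.424 and 0.671 CPM in H460 against 0.0266 and 0.025 in RKO. SOX2 had no reads in RKO and 4.67 and 1.64 CPM in A549 and 3.04 and 2.42 CPM in H460.

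Markers of other cell types were unevenly read. Of 10 neuroendocrine markers, 4 had at most 3 reads in each of the 6 libraries and only 4 could be tested. All 4 tested were lower in RKO without overlap (100%, background 28.1%). The 10 markers together summed to only 0.650 to 0.665 CPM in RKO. The 4 thus passed the filter of 0.5 CPM through the lung libraries, so their direction was close to fixed in advance. Among them were SYP, a synaptic vesicle protein (0.452 and 0.425 CPM in RKO, 4.35 and 4.11 CPM in A549 and 5.26 and 5.92 CPM in H460), and DLL3, a Notch ligand (0.0266 and 0.025 CPM in RKO, 9.43 and 6.82 CPM in A549 and 3.85 and 3.62 CPM in H460). CHGA, a granule protein, had no reads in RKO, 0.505 and 0.421 CPM in A549 and 39.5 and 25.9 CPM in H460. The 10 fibroblast markers summed to 0.824 and 1.10 CPM in RKO and to 35.4 to 88.1 CPM in the lung libraries, mostly COL1A1 (0.346 and 0.45 CPM in RKO, 47.4 and 84.2 CPM in A549 and 10.8 and 10.9 CPM in H460). The 10 blood and endothelial markers summed to 432 to 477 CPM in RKO and 29.6 to 163 CPM in the lung libraries, mostly CD68, a lysosomal protein (476 and 431 CPM in RKO, 152 and 110.4 CPM in A549 and 22 and 18.5 CPM in H460). The leukocyte gene PTPRC and the endothelial gene PECAM1 were at or near 0 in all 6 libraries. The part of these markers in the differences given below was not tested.

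The share of each gene list that was called without overlap is drawn beside the share of all tested genes. NRF2 targets, mesenchymal genes and genes known to be methylated in colorectal cancer were lower in RKO at more than the background share, and p53 targets at less. These shares are descriptions of the lists, not tests. Members scarce in RKO are tested only if the lung libraries pass the filter, which tilts lists of such genes toward lower.

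**Figure D2:**
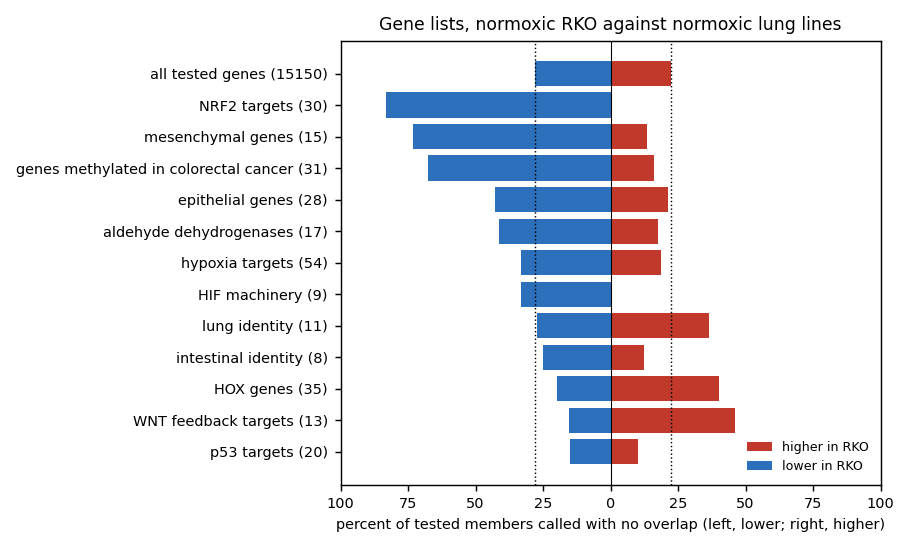
Percent of the tested members of each list drawn called without overlap between RKO and the 4 lung libraries (bars to the right, higher in RKO; to the left, lower in RKO; tested members in brackets, at least 8 in each list drawn). Dotted lines mark all 15150 tested genes, 22.5% higher and 28.1% lower; NRF2 targets reached 83.3% lower and none higher.

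The genes with the widest gap between RKO and the lung libraries, chosen by rank, were a mixed group. SFTA1P, a transcribed surfactant pseudogene, had 175 and 171 CPM in RKO, 0.12 and 0.174 CPM in A549 and 0.106 and 0.263 CPM in H460 (log2 fold change 9.98 ± 0.20 (SE), adjusted p = 5.14e-12). CCND2, cyclin D2 of the G1 phase, had 219.6 and 209.8 CPM in RKO, 0.192 and 0.223 CPM in A549 and 0.353 and 0.35 CPM in H460. The related CCND1 was read in all lines (199.98 and 174 CPM in RKO, 444 and 386 CPM in A549 and 128 and 116 CPM in H460) and was not called; it was looked at after the CCND2 values were seen. SYK, a tyrosine kinase of immune receptor signaling, had 84.1 and 74.4 CPM in RKO, 0.241 and 0.248 CPM in A549 and 0.177 and 0.146 CPM in H460, and PTPN7, a phosphatase of hematopoietic cells, had 111 and 122 CPM in RKO, 0.12 and 0.0496 CPM in A549 and 0.247 and 0.0584 CPM in H460. DNAJA4, a cochaperone, had 42.6 and 42.5 CPM in RKO, 0 and 0.124 CPM in A549 and 0.0706 and 0.0292 CPM in H460.

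Metallothioneins, small proteins that bind zinc and copper, were a group of their own among the genes high in RKO. MT1E had 112 and 141 CPM in RKO, 0.192 and 0.124 CPM in A549 and 0.0706 and 0.0584 CPM in H460, and MT1L had 128 and 92 CPM in RKO, 0.0481 and 0.174 CPM in A549 and 0.177 and 0.0875 CPM in H460. The other family members were looked at after these values were seen. MT2A had 645 and 711 CPM in RKO, 74.3 and 75.2 CPM in A549 and 27.9 and 24.4 CPM in H460 (log2 fold change 3.93 ± 0.13 (SE), adjusted p = 2.77e-11), and MT1X had 77.1 and 65.5 CPM in RKO, 6.66 and 9.74 CPM in A549 and 0.918 and 0.642 CPM in H460. MT1F and MT1M were called higher without overlap as well. MT1G and MT1H had at most 1 read in any of the 6 libraries, so the difference did not extend to the whole family. MT1A went the other way, with 0 and 1 reads in RKO, 1 and 0 reads in A549 and 4.98 and 3.73 CPM in H460, and was called lower against the lung mean through H460 alone (edgeR adjusted p = 0.0334). The family members are close in sequence, and reads that fit several of them may have been dropped or misassigned.

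The opposite end held metabolic, cytoskeletal and signaling genes. ME1, cytosolic malic enzyme, had 0.106 and 0.15 CPM in RKO, 95.7 and 100.9 CPM in A549 and 206 and 193 CPM in H460 (log2 fold change -10.05 ± 0.24 (SE), adjusted p = 1.06e-11). MAP1B, a microtubule-associated protein, had 0.452 and 0.675 CPM in RKO, 489.9 and 486 CPM in A549 and 358 and 338 CPM in H460. ANTXR1, a collagen-binding surface receptor, had 0.665 and 1 CPM in RKO, 532 and 768 CPM in A549 and 867 and 726 CPM in H460. SYNM, an intermediate filament protein, had 0.133 and 0.125 CPM in RKO, 130.1 and 76.2 CPM in A549 and 86.7 and 102 CPM in H460. NEDD9, a scaffold of focal adhesions, had 0.0798 and 0.125 CPM in RKO, 64 and 134 CPM in A549 and 94.7 and 108 CPM in H460. In each of these genes both RKO libraries were at about 1 CPM or less, and the groups were far apart.

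Genes nearly without reads in RKO alone were more numerous than the reverse. At most 3 reads in each RKO library and over 10 CPM in each lung library were found for 93 genes, which is 1.05% of the 8825 genes over 10 CPM in each lung library. The count was 109 without RKO replicate 1 and 146 without RKO replicate 2. The reverse pattern, on in RKO and at most 3 reads in each lung library, was found for 18 genes, 0.196% of the 9199 genes over 10 CPM in both RKO libraries. For comparison, 5 genes were off in A549 alone and 1 in H460 alone under the same limits, while 30 were on in A549 alone and 35 in H460 alone, more than the 18 on in RKO alone. Of the 93, 5 had no read in either RKO library and 72 were also off in both hypoxic RKO libraries. Of the 18, 14 were also off in the hypoxic lung libraries. By construction these genes had to differ, so their counts and reads are given without a test.

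The off genes spanned signaling, transcription and metabolism. PTPN13, a large phosphatase, had 0 and 1 reads in RKO and 56.1 and 53.7 CPM in A549 and 46.5 and 46.8 CPM in H460. GNG11, a G protein gamma subunit, had 3 and 2 reads in RKO and 29.7 and 31.9 CPM in A549 and 111 and 113 CPM in H460. The lung lines were alike in PTPN13, whereas GNG11 was higher in H460. NR0B1, an orphan nuclear receptor, had 1 and 2 reads in RKO and 26.6 and 15.6 CPM in A549 and 70.3 and 69.9 CPM in H460. PPARG, a nuclear receptor of lipid metabolism, had 0 and 2 reads in RKO and 66.9 and 62.9 CPM in A549 and 10.1 and 12.2 CPM in H460. NNT, the mitochondrial enzyme that makes NADPH from NADH, had 1 and 2 reads in RKO and 33.7 and 40.6 CPM in A549 and 44.5 and 36.7 CPM in H460. PPARG, NNT and the off or on genes named below for their neighbors or family were picked after their values were seen.

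Several off genes lay side by side. LCMT2 and ADAL on chromosome 15 overlap head to head (chr15:43619974-43622820, minus strand, and chr15:43622554-43646753, plus strand, GRCh37), as do HEIH and LINC00847 on chromosome 5. SCOC and CLGN on chromosome 4 lie tail to tail, close together. Of the 93 genes 9 lay on chromosome 15, 9.68% against 3.43% of the tested genes, and 11 on the X chromosome, 11.8% against 3.32%. The 9 on chromosome 15 included IPW and PWAR5, noncoding transcripts of the imprinted Prader-Willi interval. IPW had 2 and 3 reads in RKO and 29.9 and 28.4 CPM in A549 and 63.4 and 73 CPM in H460, and PWAR5 had 2 and 0 reads in RKO and 12.9 and 10.7 CPM in A549 and 24.3 and 29.3 CPM in H460. UBE3A, the neighboring gene expressed from the other parental copy in brain, was read in all lines (143 and 131 CPM in RKO, 64.3 and 79.4 CPM in A549 and 118 and 118 CPM in H460) and was chosen after its values were seen.

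Genes on in RKO alone included CDX2, the kinase inhibitor CDKN2B, RGS4, a regulator of G protein signaling, and FAR2, a fatty acyl-CoA reductase. RGS4 had 33.6 and 22.5 CPM in RKO and 0 and 1 reads in A549 and 0 and 1 in H460. FAR2 had 24.2 and 19.95 CPM in RKO and 0 and 1 reads in A549 and 0 and 1 in H460. Zinc finger genes of the ZNF family were 5 of the 18, 27.8% against 3.04% of all tested genes, and all 5 lay on chromosome 19. They were ZNF702P, ZNF486, ZNF737, ZNF681 and ZNF844, at 36.5 and 27.8 CPM in RKO for ZNF702P and 10.02 and 10.9 CPM for ZNF844. Related zinc finger genes share sequence, so their counts are uncertain. ZBED6CL lies within LRRC61 on the same strand of chromosome 7, and their levels in RKO, 41.6 and 53.6 CPM for ZBED6CL and 38.5 and 38.5 CPM for LRRC61, may not be separate measurements.

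CpG sites of the promoters of these genes are shown because methylation of such sites is a known route to loss of a transcript. The sequences are the 250 bases before the gene start of the deposited annotation on GRCh37, written 5′ to 3′ on the strand of the gene, with every CG in capitals. GNG11 (chr7:93550766-93551015, plus strand) and ADD2 (chr2:70995376-70995625, minus strand) were off in RKO, and ZNF702P (chr19:53496785-53497034, minus strand) and CDX2 (chr13:28543506-28543755, minus strand) were on in RKO alone. No annotated exon lies in these 4 stretches.
GNG11: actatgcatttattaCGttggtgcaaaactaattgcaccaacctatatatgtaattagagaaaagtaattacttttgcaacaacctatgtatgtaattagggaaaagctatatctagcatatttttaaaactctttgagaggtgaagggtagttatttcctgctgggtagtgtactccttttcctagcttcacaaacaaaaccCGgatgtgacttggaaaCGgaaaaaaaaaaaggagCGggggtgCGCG
ADD2: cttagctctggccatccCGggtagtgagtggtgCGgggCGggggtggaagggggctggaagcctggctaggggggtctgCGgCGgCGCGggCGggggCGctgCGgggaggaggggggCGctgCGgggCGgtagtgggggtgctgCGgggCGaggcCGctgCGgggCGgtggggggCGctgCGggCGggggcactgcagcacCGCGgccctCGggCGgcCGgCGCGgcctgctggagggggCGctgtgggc
ZNF702P: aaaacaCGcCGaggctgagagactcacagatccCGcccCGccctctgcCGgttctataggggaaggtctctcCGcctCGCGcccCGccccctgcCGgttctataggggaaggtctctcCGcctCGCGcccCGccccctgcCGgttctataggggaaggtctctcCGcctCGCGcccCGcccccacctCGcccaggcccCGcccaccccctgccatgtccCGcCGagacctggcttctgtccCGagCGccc
CDX2: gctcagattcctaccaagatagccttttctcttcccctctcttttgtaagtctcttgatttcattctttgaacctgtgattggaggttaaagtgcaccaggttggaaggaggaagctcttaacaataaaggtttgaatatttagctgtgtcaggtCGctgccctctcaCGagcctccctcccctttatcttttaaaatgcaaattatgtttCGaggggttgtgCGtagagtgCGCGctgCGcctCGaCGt

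These windows held 6 CG sites for GNG11, 29 for ADD2, 25 for ZNF702P and 9 for CDX2. Windows drawn in the same way but not shown held fewer. There was 1 CG site for SCOC and 4 for LONRF2, both off in RKO, and 1 for LOC100506422, on in RKO alone. Over 300 bases from 250 before to 50 after the start, 59 of the 93 off genes (63.4%) were CpG-dense, with an observed over expected ratio over 0.6 and over 50% G and C. Among all genes over 10 CPM in each lung library with such a window 81.9% were CpG-dense. Among the 18 genes on in RKO alone 33.3% were, against 82.3% of the genes over 10 CPM in each RKO library. The share was thus lower among the genes off in RKO than among the genes they were drawn from, with no test made. This was not particular to the off genes. The share was 60.4% among genes over 8-fold lower in RKO and over 10 CPM in each lung library. It was 63.8% among genes over 8-fold higher in RKO and over 10 CPM in each RKO library. The window uses 1 start per gene, which need not be the start in use, and methylation was not measured.

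Genes known to be methylated in colorectal cancer were low in RKO for the most part. Of 44 such genes 31 could be tested, and 21 were lower in RKO without overlap (67.7%, background 28.1%) and 5 higher (16.1%, background 22.5%). Of the 31 tested, 20 were lower by over 8-fold without overlap (background 13.0%) and 4 higher by over 8-fold (background 3.36%). The median log2 fold change of the list was -6.26, or -5.59 with low values raised to 3 reads per library, against -0.09 for all tested genes.

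The other genes lower in RKO have varied functions. HLTF, a helicase-like chromatin remodeler, had 0.213 and 0.375 CPM in RKO, 116 and 137 CPM in A549 and 69.5 and 63.7 CPM in H460 (log2 fold change -8.27 ± 0.25 (SE), adjusted p = 1.89e-11). CHFR, a mitotic checkpoint ubiquitin ligase, had 0.585 and 1.25 CPM in RKO, 39.8 and 46.6 CPM in A549 and 34.1 and 37.3 CPM in H460. DKK1, a secreted WNT inhibitor, had 0.213 and 0.4 CPM in RKO, 331 and 335 CPM in A549 and 21.5 and 26 CPM in H460. Both RKO libraries were below 2 CPM for each of these genes, and A549 exceeded H460 for DKK1. TFPI2, an inhibitor of matrix proteases, had 0.532 and 1.05 CPM in RKO, 108 and 95 CPM in A549 and 756 and 719 CPM in H460, with the order of the lung lines reversed. IGFBP3, which binds insulin-like growth factors, had 2.26 and 3.23 CPM in RKO, 931 and 814 CPM in A549 and 160.2 and 116 CPM in H460. RUNX3, RASSF2, CACNA1G and SFRP4 were read mainly in A549, and MCC and RARB mainly in H460. In these genes the difference rested chiefly on 1 lung line.

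Not every gene of this list was low in RKO. MGMT, which repairs alkylated guanine, had 27.8 and 23.6 CPM in RKO, 9.82 and 9.67 CPM in A549 and 9.85 and 10.2 CPM in H460 (log2 fold change 1.37 ± 0.15 (SE), adjusted p = 3.79e-06). HIC1, a transcriptional repressor, had 6.91 and 6.13 CPM in RKO, 0.842 and 0.669 CPM in A549 and 0.388 and 0.379 CPM in H460, and GATA4, a factor of gut endoderm, had 20.2 and 20.7 CPM in RKO, 3.78 and 3.42 CPM in A549 and 0.0706 and 0.117 CPM in H460. CDKN2A was low in RKO too, at 1.46 and 0.8 CPM, while no lung library had a read of it. The adjacent CDKN2B had 13.001 and 12.98 CPM in RKO and at most 2 reads in a lung library. RASSF1 (20.8 and 24.3 CPM in RKO, 25.5 and 20.6 CPM in A549 and 31.1 and 28.4 CPM in H460) and NDRG4 were not called.

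Mismatch repair genes differed in part. MSH3, which takes part in the repair of loops, had 3.51 and 4.78 CPM in RKO, 25.2 and 29.2 CPM in A549 and 22 and 21.7 CPM in H460 (log2 fold change -2.56 ± 0.19 (SE), adjusted p = 9.48e-08). PMS2, another repair subunit, had a log2 fold change of -0.60, and its call was lost by library size alone. MSH6, which takes part in the repair of single mismatches, was not called (120.1 and 118 CPM in RKO, 153 and 129 CPM in A549 and 92.9 and 100.6 CPM in H460).

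**Figure D3:**
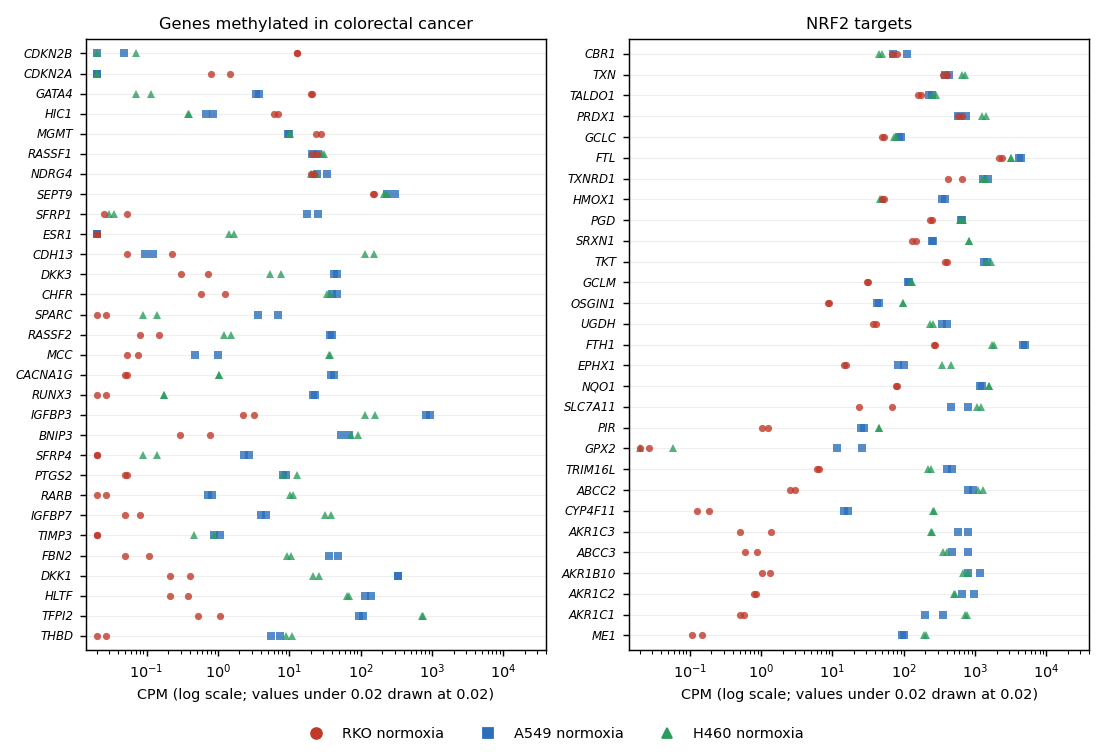
CPM in each normoxic library (log scale) of tested genes known to be methylated in colorectal cancer (left) and of NRF2 targets (right), sorted by the log2 fold change of RKO minus the lung lines. Red circles are RKO, blue squares A549 and green triangles H460; in the right panel no NRF2 target had both RKO points above all lung points.

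NRF2 targets were lower in RKO as a group. All 30 were tested, 25 were lower without overlap (83.3%, background 28.1%), none was higher (background 22.5%) and 15 were lower by over 8-fold (background 13.0%). The median log2 fold change was -3.57 against -0.09 for all tested genes. The aldo-keto reductases, which reduce aldehydes and steroids, were among the widest apart. AKR1B10 had 1.04 and 1.33 CPM in RKO, 1165 and 797 CPM in A549 and 787 and 682 CPM in H460 (log2 fold change -9.49 ± 0.28 (SE), adjusted p = 1.95e-11). AKR1C1, AKR1C2 and AKR1C3 are near copies of each other with uncertain counts, and AKR1C2 had 0.798 and 0.85 CPM in RKO, 954 and 658 CPM in A549 and 515 and 499 CPM in H460. NQO1, the quinone reductase used as an NRF2 readout, had 79.6 and 77.7 CPM in RKO, 1237 and 1162 CPM in A549 and 1572 and 1549.8 CPM in H460 (log2 fold change -4.13 ± 0.17 (SE), adjusted p = 1.68e-10). It was well expressed in RKO, unlike the reductases.

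The same direction was seen for export, cystine import and iron storage. ABCC2, an exporter of conjugated compounds, had 2.58 and 2.98 CPM in RKO, 929 and 802 CPM in A549 and 1103 and 1295 CPM in H460 (log2 fold change -8.52 ± 0.23 (SE), adjusted p = 1.29e-11). SLC7A11, the cystine importer, had 69.2 and 23.9 CPM in RKO, 456 and 802 CPM in A549 and 1073 and 1190.4 CPM in H460, and its RKO libraries differed from each other more than those of the other lines did. FTH1, the ferritin heavy chain, had 275 and 269 CPM in RKO, 5009 and 4712 CPM in A549 and 1823 and 1701 CPM in H460. The glutathione synthesis genes GCLC (-0.67) and GCLM (-1.98) differed less on the log2 scale. HMOX1, heme oxygenase, was high in A549 alone (52.9 and 48.7 CPM in RKO, 380.3 and 339 CPM in A549 and 49.3 and 46.2 CPM in H460), and CBR1 was not called.

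Aldehyde dehydrogenases, which oxidize aldehydes, went both ways. Of 17 tested, 7 were lower in RKO without overlap (41.2%, background 28.1%) and 3 higher (17.6%, background 22.5%). ALDH3A1, which clears aromatic and lipid aldehydes, had 0.558 and 0.65 CPM in RKO, 589 and 245 CPM in A549 and 596 and 452 CPM in H460 (log2 fold change -9.59 ± 0.46 (SE), adjusted p = 8.86e-10). ALDH1A1, which makes retinoic acid and marks stem-like cells, had 2.29 and 3.73 CPM in RKO, 3085 and 3557 CPM in A549 and 104 and 89.4 CPM in H460, with A549 far above H460. ALDH1L2, of mitochondrial folate metabolism, had 0.399 and 0.425 CPM in RKO, 31.9 and 142 CPM in A549 and 261 and 285 CPM in H460, and its A549 libraries differed by over 4-fold. The mitochondrial ALDH18A1 of proline synthesis was higher in RKO (298 and 290.0 CPM in RKO, 89.998 and 71.1 CPM in A549 and 149 and 126 CPM in H460), and ALDH7A1 and ALDH9A1 were not called.

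Epithelial and mesenchymal genes were both lower in RKO more often than higher. Of 28 epithelial genes tested, 12 were lower in RKO without overlap (42.9%, background 28.1%) and 6 higher (21.4%, near the background of 22.5%). Of 15 mesenchymal genes, 11 were lower (73.3%, background 28.1%) and 2 higher (13.3%, background 22.5%). All 6 epithelial genes higher in RKO were so by over 8-fold (background 3.36%), and 9 of the 28 were lower by over 8-fold (background 13.0%). Of the mesenchymal genes 9 were lower by over 8-fold and 0 higher. CDH1, E-cadherin of adherens junctions, had 0.106 and 0.05 CPM in RKO, 71.2 and 66.3 CPM in A549 and 0.459 and 0.496 CPM in H460, so that only A549 expressed it strongly. CDH2, N-cadherin, had 0.16 and 0.45 CPM in RKO, 185 and 236 CPM in A549 and 0.353 and 0.525 CPM in H460. RKO and H460 were thus low in both cadherins, and CDH2 overlapped between RKO and H460. JUP, plakoglobin of junctions and desmosomes, had 0.16 and 0.175 CPM in RKO, 86.5 and 90.8 CPM in A549 and 204 and 145 CPM in H460 (log2 fold change -9.51 ± 0.28 (SE), adjusted p = 1.72e-11). CLDN1, a tight junction claudin, had 0.133 and 0.35 CPM in RKO, 58.9 and 139 CPM in A549 and 187 and 169.6 CPM in H460.

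Intermediate filaments and cortex proteins were lower too. KRT8, a keratin of simple epithelia, had 8.27 and 8.05 CPM in RKO, 1791 and 1473 CPM in A549 and 775 and 706 CPM in H460 (log2 fold change -7.08 ± 0.21 (SE), adjusted p = 1.72e-11), whereas its partner KRT18 had 183 and 171 CPM in RKO, 1259 and 1023 CPM in A549 and 505 and 506 CPM in H460. VIM, vimentin of mesenchymal cells, had 10.05 and 10.6 CPM in RKO, 2178 and 1799 CPM in A549 and 1129 and 1042 CPM in H460 (log2 fold change -7.16 ± 0.21 (SE), adjusted p = 1.72e-11). KRT8 and VIM were thus far below both lung lines in RKO, and KRT18 was closer to them. MSN, moesin of the cell cortex, had 1.14 and 1.25 CPM in RKO, 646 and 515 CPM in A549 and 648 and 548.5 CPM in H460 (log2 fold change -8.94 ± 0.24 (SE), adjusted p = 1.29e-11). TGFBI, a secreted matrix protein, had 4.63 and 6.9 CPM in RKO, 2527 and 3206 CPM in A549 and 2009.9 and 1725 CPM in H460, S100A4, a calcium-binding protein of motile cells, had 0.266 and 0.45 CPM in RKO, 305 and 206 CPM in A549 and 364 and 346 CPM in H460, and FN1, fibronectin, had 8.59 and 13.4 CPM in RKO, 240.4 and 253 CPM in A549 and 6288 and 5196 CPM in H460.

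Other genes of both lists were higher in RKO. ESRP2, a splicing factor of epithelial cells, had 84.9 and 103 CPM in RKO, 0.361 and 0.992 CPM in A549 and 0.388 and 0.321 CPM in H460 (log2 fold change 7.57 ± 0.25 (SE), adjusted p = 3.84e-11). SPINT1, an inhibitor of membrane proteases, had 76.6 and 92.6 CPM in RKO, 0.385 and 0.496 CPM in A549 and 1.84 and 1.55 CPM in H460, and OCLN, occludin of tight junctions, had 56.5 and 52.1 CPM in RKO, 14.7 and 18.8 CPM in A549 and 2.33 and 2.57 CPM in H460. ZEB1, a repressor of epithelial genes, was higher in RKO as well (121 and 88.8 CPM in RKO, 30.2 and 36.1 CPM in A549 and 18.9 and 23.4 CPM in H460, log2 fold change 1.98 ± 0.15 (SE), adjusted p = 1.08e-07), and so was the receptor kinase AXL (879 and 935 CPM in RKO, 521 and 603 CPM in A549 and 47.5 and 40.9 CPM in H460). ZEB2 (0.0266 and 0.1 CPM in RKO, 12.7 and 14.97 CPM in A549 and 39.9 and 46.9 CPM in H460) and SNAI2 (0.0266 and 0 CPM in RKO, 11.8 and 21.2 CPM in A549 and 4.38 and 3.73 CPM in H460), further repressors of this kind, were lower. EPCAM, an adhesion protein of epithelia, lay between the lung lines (4.55 and 4.93 CPM in RKO, 17 and 15.9 CPM in A549 and 0.459 and 0.496 CPM in H460). Its sign was reversed in the fit with the line as the unit, which also takes 1 common mean for both lung lines.

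**Figure D4:**
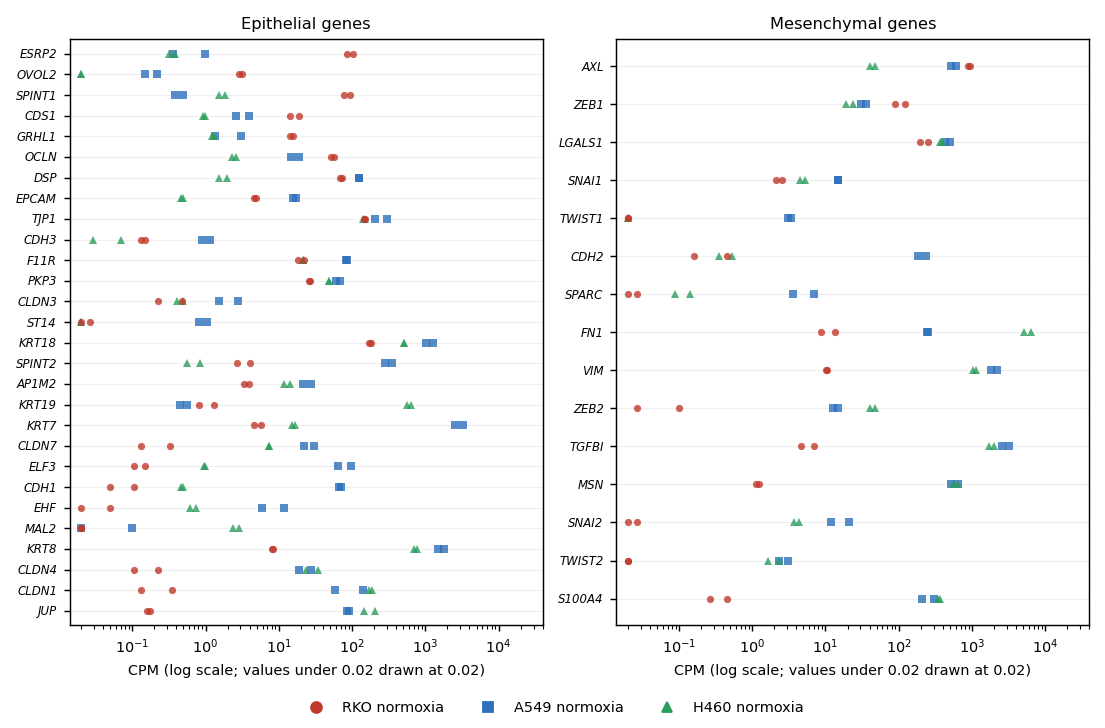
CPM in each normoxic library (log scale) of tested epithelial genes (left) and mesenchymal genes (right), sorted by the log2 fold change of RKO minus the lung lines. Red circles are RKO, blue squares A549 and green triangles H460; the lower rows of both panels show RKO well below both lung lines, as for JUP, CLDN1, S100A4 and MSN.

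HOX genes, which encode position along the body axis, were expressed in all lines in different sets. Of 35 tested, 14 were higher in RKO without overlap (40%, background 22.5%) and 7 lower (20%, background 28.1%). HOXD3 had 2.95 and 3.25 CPM in RKO and no reads in any lung library, and HOXD4 had 2.69 and 3.63 CPM in RKO and 1 read among the lung libraries. HOXB2 had 12.7 and 14.8 CPM in RKO, 2.91 and 3.05 CPM in A549 and 0.0353 and 0.0875 CPM in H460, and HOXA7 had 19.97 and 23.1 CPM in RKO, 3.75 and 4.46 CPM in A549 and 1.98 and 1.78 CPM in H460 (log2 fold change 2.95 ± 0.18 (SE), adjusted p = 1.08e-08). HOXA2 and HOXA3 were lower in RKO, and HOXA3 had 0.505 and 1 CPM in RKO, 22.1 and 15.5 CPM in A549 and 19.8 and 21.1 CPM in H460. By cluster, 6 of 11 tested genes of the A cluster, 2 of 9 of the B cluster, 3 of 8 of the C cluster and 3 of 7 of the D cluster were higher without overlap. Levels were mostly low, as in these examples.

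Genes of the WNT feedback list, not all of which report beta-catenin activity, were higher in RKO more often than lower. Of 13 tested, 6 were higher without overlap (46.2%, background 22.5%) and 2 lower (15.4%, background 28.1%). LEF1, a nuclear partner of beta-catenin, had 26.4 and 22.6 CPM in RKO, 0.0241 and 0.0496 CPM in A549 and 0.6 and 0.7 CPM in H460 (log2 fold change 7.24 ± 0.25 (SE), adjusted p = 5.20e-11). NKD1, a feedback inhibitor, had 18.2 and 16.2 CPM in RKO, 2.02 and 2.38 CPM in A549 and 0.777 and 0.379 CPM in H460 (log2 fold change 3.93 ± 0.23 (SE), adjusted p = 8.06e-09). AXIN2, the most used target, was called higher but overlapped (4.89 and 3.63 CPM in RKO, 4.72 and 2.65 CPM in A549 and 1.2 and 0.642 CPM in H460), and TCF7L1 had no reads in RKO and 6.64 and 6.17 CPM in A549 and 0.53 and 0.992 CPM in H460. LGR5 and ASCL2 could not be tested. AXIN1, one of the 6, is not such a feedback gene, and it lost its call under DESeq2. The count of 6 ranged from 3 to 7 under the alternatives other than the line as the unit.

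p53 targets, which arrest the cycle or start apoptosis, were called less often than all tested genes were. Of 20 tested, 13 were not called, as were 6120 of all 15150 tested genes. Without overlap 2 were higher (10%, background 22.5%) and 3 lower (15%, background 28.1%) in normoxia. RRM2B, a ribonucleotide reductase subunit, had 111 and 109 CPM in RKO, 48.8 and 53.2 CPM in A549 and 35.5 and 34.9 CPM in H460, and TP53I3 had 13.1 and 12.5 CPM in RKO, 188 and 193 CPM in A549 and 32.3 and 32 CPM in H460. CDKN1A, p21, had 147 and 125 CPM in RKO, 232 and 141 CPM in A549 and 48 and 39 CPM in H460 and overlapped.

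Many cancer-testis genes and mucins had few reads, and the MAGE genes among them are close copies with uncertain counts. Of 24 cancer-testis genes, 16 had at most 3 reads in each library, 6 were tested, none was higher in RKO without overlap (background 22.5%) and 3 were lower (50%, background 28.1%). MAGEA1 was read mainly in H460 (0.0266 and 0.075 CPM in RKO, 0.241 and 0.273 CPM in A549 and 83.6 and 82.5 CPM in H460) and MAGEA3 mainly in A549 (0.0798 and 0.025 CPM in RKO, 55 and 45.7 CPM in A549 and 0.106 and 0.0875 CPM in H460), while PRAME was read in all lines (63.5 and 63.1 CPM in RKO, 133 and 93.3 CPM in A549 and 48.6 and 50.5 CPM in H460). Of 7 mucins tested, 4 were lower in RKO without overlap (57.1%, background 28.1%) and 1 higher (14.3%, background 22.5%). MUC5B, a gel-forming mucin of airways, had 0 and 0.075 CPM in RKO, 10.1 and 7.06 CPM in A549 and 0.494 and 0.263 CPM in H460. MUC2, the gut mucin, had no reads in RKO and too few in the lung lines to be tested.

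Of 9 tested genes of the oxygen sensing machinery, 3 were lower in RKO without overlap (33.3%, near the background of 28.1%) and none was higher (background 22.5%). HIF1A had 159 and 146 CPM in RKO, 468 and 567 CPM in A549 and 332 and 317 CPM in H460 (log2 fold change -1.43 ± 0.14 (SE), adjusted p = 1.25e-06). EPAS1, which encodes HIF2A, had 9.44 and 7.1 CPM in RKO, 366 and 437 CPM in A549 and 117 and 106 CPM in H460 (log2 fold change -4.68 ± 0.19 (SE), adjusted p = 1.78e-10). EGLN3, a prolyl hydroxylase that is itself a hypoxia gene, had 0.106 and 0.15 CPM in RKO, 25.8 and 12.2 CPM in A549 and 13.7 and 10.2 CPM in H460 (log2 fold change -6.84 ± 0.46 (SE), adjusted p = 3.12e-08). EGLN1 (78.8 and 54.3 CPM in RKO, 93.8 and 124 CPM in A549 and 73.5 and 68.8 CPM in H460), ARNT, VHL and HIF1AN were not called. Transcripts of both HIF alpha subunits were thus lower in RKO, with the larger difference for EPAS1. EGLN2 and ARNT2 were called higher in RKO but overlapped.

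Hypoxia targets were found on both sides before hypoxia. Of 54 tested, 10 were higher without overlap (18.5%, background 22.5%) and 18 lower (33.3%, background 28.1%), and the median log2 fold change was -0.01. Some were nearly absent from RKO. BNIP3, of mitophagy, had 0.292 and 0.775 CPM in RKO, 67.8 and 53.7 CPM in A549 and 93 and 73.5 CPM in H460 (log2 fold change -7.04 ± 0.31 (SE), adjusted p = 3.89e-10), and it stayed at 0.272 and 0.371 CPM in hypoxic RKO against 219 and 207 CPM in hypoxic A549 and 810.0 and 768 CPM in hypoxic H460. VLDLR, a lipoprotein receptor, had 0.239 and 0.2 CPM in RKO, 45.6 and 95.2 CPM in A549 and 51.7 and 48.5 CPM in H460, and 0.124 and 0.0794 CPM in hypoxic RKO. STC2, a secreted glycoprotein, had 0.479 and 0.675 CPM in RKO, 90.9 and 334 CPM in A549 and 334 and 361 CPM in H460, and 0.47 and 0.371 CPM in hypoxic RKO. PLOD2, a lysyl hydroxylase of collagen, had 1.28 and 1.48 CPM in RKO, 572 and 653 CPM in A549 and 47.4 and 35.7 CPM in H460, and 1.06 and 1.09 CPM in hypoxic RKO. These genes were low in RKO under both conditions.

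In 12 of the 54 targets (22.2%) both hypoxic RKO libraries lay below all normoxic lung libraries, against 32.0% of all tested genes. They were BNIP3, CA12, CITED2, EGLN3, GAPDH, LOXL2, PFKP, PLOD2, PPFIA4, STC1, STC2 and VLDLR. LOXL2, which crosslinks collagen, had 1.7 and 2.2 CPM in RKO, 422 and 538 CPM in A549 and 67.2 and 82.2 CPM in H460. Together with PLOD2 it is one of the matrix genes of the list. PFKP, platelet phosphofructokinase, had 156 and 156 CPM in RKO, 605 and 541 CPM in A549 and 269.7 and 251 CPM in H460, a smaller difference.

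Several genes of sugar metabolism were higher in RKO. HK2, the inducible hexokinase, had 234 and 182 CPM in RKO, 4.11 and 3.84 CPM in A549 and 77.1 and 68.4 CPM in H460 (log2 fold change 3.61 ± 0.13 (SE), adjusted p = 9.39e-11). HK1, the housekeeping hexokinase, had 216 and 189 CPM in RKO, 117 and 97.3 CPM in A549 and 104 and 100.7 CPM in H460 (log2 fold change 0.95 ± 0.13 (SE), adjusted p = 1.88e-05). ENO2, neuronal enolase, had 189.5 and 189 CPM in RKO, 92.9 and 67.8 CPM in A549 and 34.8 and 31.3 CPM in H460 (log2 fold change 1.87 ± 0.14 (SE), adjusted p = 6.14e-08). PGAM1 of glycolysis and GYS1 of glycogen synthesis were higher without overlap too, at log2 fold changes of 0.87 and 1.33. Normoxic RKO exceeded hypoxic A549 for GYS1, HK1, HK2, PDK1 and RORA, 5 of 54 (9.26%, against 40.6% of all tested genes). HK2 had 17.7 and 28.1 CPM in hypoxic A549, below both normoxic RKO libraries. Normoxic RKO exceeded hypoxic H460 for 4 of 54, among them HK1, PFKFB3 and PGAM1 (7.41%, against 42.2%). For the other targets normoxic RKO did not lie above the hypoxic lung libraries without overlap.

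Well known targets varied. CA9, the tumor carbonic anhydrase, had 3.72 and 1.85 CPM in RKO, 5.8 and 2.55 CPM in A549 and 3.49 and 1.05 CPM in H460, and PGK1, of glycolysis, had 812 and 589 CPM in RKO, 692 and 547 CPM in A549 and 828 and 696 CPM in H460, and neither was called. VEGFA, the angiogenic growth factor, was lower in RKO (64.8 and 52.3 CPM in RKO, 84.5 and 137 CPM in A549 and 157 and 158 CPM in H460, log2 fold change -1.18 ± 0.18 (SE), adjusted p = 7.95e-05), and so was SLC2A1, the glucose transporter GLUT1 (100.4 and 101.3 CPM in RKO, 163 and 170.2 CPM in A549 and 338 and 217 CPM in H460). DDIT4, an inhibitor of mTOR signaling, had 52.9 and 12.9 CPM in RKO, 128 and 286 CPM in A549 and 1041 and 931 CPM in H460 (log2 fold change -3.79 ± 0.50 (SE), adjusted p = 1.87e-05). The RKO libraries themselves differed in the list: replicate 1 was higher than replicate 2 for 43 of the 54 targets, with a median log2 ratio of 0.29 against 0.0045 for all tested genes. NDRG1 had 107 and 29.3 CPM in RKO, and its call, like those of ALDOC, ANKRD37 and INSIG2, was lost without RKO replicate 1. The part of this replicate difference in the other calls was not tested.

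**Figure D5:**
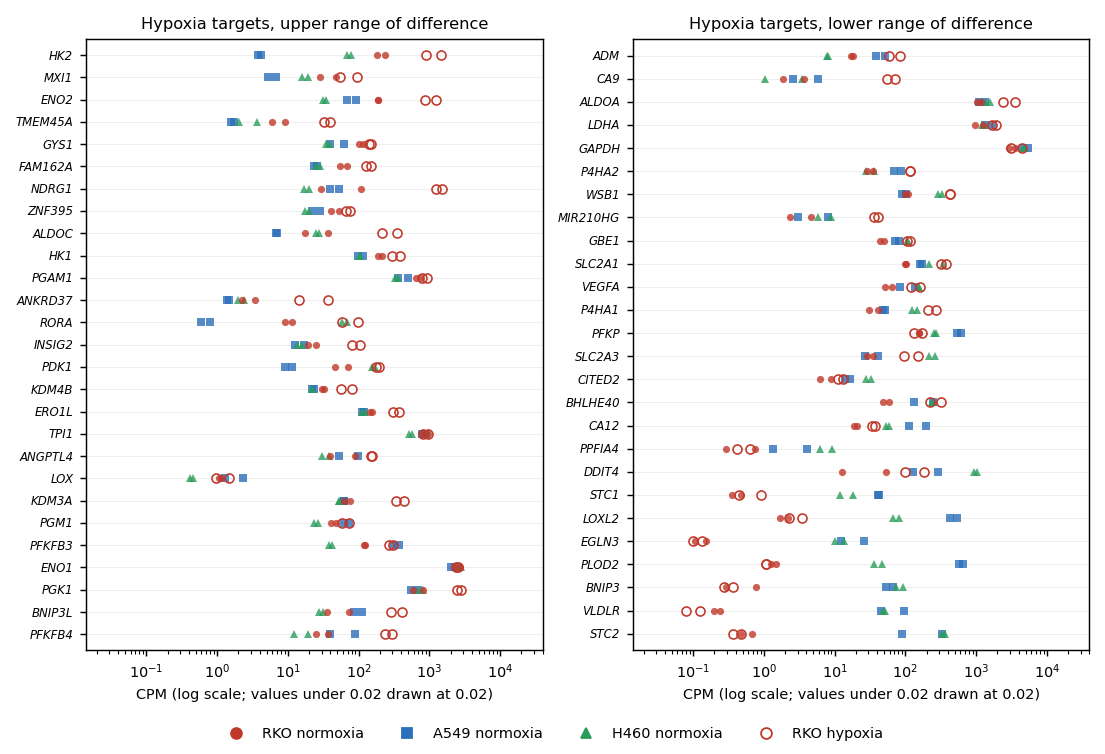
CPM (log scale) of tested hypoxia targets in normoxic RKO (filled red circles), A549 (blue squares) and H460 (green triangles), with hypoxic RKO as open red circles, sorted by the log2 fold change of RKO minus the lung lines in normoxia. HK2 heads the left panel with RKO above both lung lines, and the last rows of the right panel, from STC1 to STC2, show RKO low in normoxia and in hypoxia.

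The line difference was present in the hypoxic libraries, which are other cultures of the same lines. Among 15180 genes tested there, 3345 were higher (22.0%) and 3783 lower (24.9%) in RKO without overlap. Of 3387 genes higher in normoxia and tested in both, 2388 were higher in hypoxia (70.5% of these and 73.7% of the hypoxia calls) and 3 were lower. Of 4124 genes lower in normoxia, 3016 were lower in hypoxia (73.1%, and 81.7% of the hypoxia calls) and 29 were higher. Of 30 NRF2 targets tested in hypoxia 21 were lower without overlap and 0 higher. Of 31 tested genes methylated in colorectal cancer 17 were lower and 7 higher, against 21 and 5 in normoxia. Of the 20 p53 targets 10 were higher and 1 lower without overlap in hypoxia, against 2 and 3 in normoxia. Of the hypoxia targets 2 were higher and 22 lower in hypoxia against 10 and 18 in normoxia. The change between conditions was not tested for any of these lists. The scaling matters here: 46.3% of the genes called in hypoxia were higher in RKO after TMM and 59.7% by library size alone, with a median shift of 0.306 on the log2 scale. In normoxia this shift was 0.0317.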

How the data were processed

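Poly(A)+ RNA was sequenced from 3 lines in normoxia and in 1% O2 for 24 h, 2 libraries each. The authors aligned reads with TopHat2 and Bowtie2 to GRCh37, and the deposited counts are HTSeq exon counts by strand for 25369 genes. Reads with a mapping quality under 10 had been removed, which lowers the counts of near-identical genes. A deposited RPKM table gives values per gene length and library reads, and how the authors made it is not given in the sources used here. Genes over 0.5 CPM in at least 2 of the 6 normoxic libraries were tested with edgeR 4.0.16 (quasi-likelihood, TMM, Benjamini-Hochberg adjustment over all tested genes) in R 4.3.3, RKO against the mean of A549 and H460, each line with its own mean. Calls needed an adjusted p below 0.1 and a fold change over 1.5. Standard errors were derived from the same fit, as the absolute log2 fold change divided by the square root of the F statistic. Named genes were members of 18 lists, the 12 genes per direction with the widest gap, and the 8 most abundant off or on genes per direction; additions are marked in the text. Members and lists were chosen with earlier results of these data known. On simulated counts for this comparison 93% of 2-fold and 100% of 4-fold changes were called. These counts had the same spread for every gene and equal mean levels in A549 and H460, unlike the data. Alternatives were DESeq2 1.42.0, limma 3.58.1 on log2 RPKM, other scalings, filters and thresholds, a replicate block, the line as the unit, and leaving out each library. X-inactivation and Y-linked genes and some members of the lists are not reported here.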

Additional observations from a re-analysis of the deposited data

How the results depend on the processing

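With the line as the unit, 1 colon line was set against 2 lung lines, with the outcome given above. The spread in that fit came from A549 and H460 alone. A fold change over 2 left 2299 genes higher, of which 2073 did not overlap. Counts of genes over 8-fold apart fell with the values used: 230 higher and 1149 lower for genes over 1 CPM in at least 4 libraries, 1206 lower with limma on log2(RPKM + 0.1), and 110 higher and 407 lower with log2(RPKM + 1). Leaving out each library in turn gave 316 to 511 genes higher over 8-fold and 95 to 146 genes off in RKO. Genes off in RKO numbered 186 with lung levels over 5 CPM, 31 over 20 CPM, 221 at up to 10 reads and 5 at 0 reads. Genes on in RKO alone numbered 7 over 20 CPM, 42 at up to 10 reads and 0 at 0 reads. The log2 fold change changed sign for EPCAM (-0.81) and EPHB2 (-0.99) with the line as the unit, and for RORA with log2(RPKM + 1) (-0.46) and with the line as the unit (-1.65). The fit by line takes 1 common mean for both lung lines, whereas the main fit averages their separate means on the log scale. The part of this in the changes of sign was not tested. With the replicate number as a block, 3881 genes were higher and 5109 lower, and of the named genes INSIG2 lost its call. Deviations of same-numbered libraries correlated at -0.177 for RKO and A549, 0.105 for RKO and H460 and 0.140 for A549 and H460. With 2 libraries per line these values cannot tell whether the numbers pair the libraries. Of 200 recomputed counts 177 stayed within 1.5 times the reported one. Depth limits statements on genes under 3 reads per library, where absence cannot be told from a low level.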
